A study of Mus musculus with 16 samples.

Results

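Pparg and 9 genes of lipid droplets and lipid uptake were described in mouse liver. The members were the probe sets that the platform annotation assigns to Pparg, Cidea, Cidec, Plin2, Plin4, Plin5, G0s2, Cd36, Lpl or Vldlr and to no other gene. There were 16 such probe sets of 22626 tested, for 10 of 12393 named genes. Cd36 had 3, Lpl had 2, Vldlr had 4 and the other 7 genes had 1 each. They were followed over 6 groups of arrays in 2 experiments on liver RNA of male FvB/n mice. The diet experiment held 2 arrays in each of 4 groups, crossing genotype with diet. They were Alb::GC fed a high fat diet (HFD), Alb::GC fed a low fat diet (LFD), wildtype fed HFD and wildtype fed LFD. Alb::GC mice express an active C-terminal fragment of GADD34 under the albumin promoter, that is, in hepatocytes. Phosphorylation of the translation factor eIF2α is the central step of the integrated stress response, and GADD34 directs the removal of that phosphate, which ends the response. The other experiment held 4 arrays of TTR::Fv2E-PERK mice treated with AP20187 and 4 of untreated TTR::Fv2E-PERK mice. Every animal of that experiment carried the transgene, in a high-expressing line and under the transthyretin promoter. Its product is the kinase domain of PERK, an eIF2α kinase, fused to domains that the compound AP20187 brings together. The design text describes the untreated mice as mock-injected. Age, dose, time after injection and length of the diets were not given in the labels. Whether every array had an animal of its own is not stated. The p-values therefore rest on a spread between samples that could be technical.

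PPARγ, the product of Pparg, is a nuclear receptor that binds DNA together with a retinoid X receptor and switches on genes of fat storage. It is the master regulator of adipocytes and is normally low in the liver, where it is known to be raised in fatty liver. Cidea and Cidec (also called Fsp27) sit on the surface of lipid droplets and help them to fuse and grow. The perilipins Plin2, Plin4 and Plin5 coat droplets and control access of lipases, and G0s2 inhibits the lipase ATGL. Cd36 takes up long-chain fatty acids, Vldlr takes up triglyceride-rich lipoproteins, and Lpl releases fatty acids from those lipoproteins in the blood. Several of the members, among them Cidea, Cidec, Plin4, Cd36 and Lpl, are known targets of PPARγ.

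The promoter windows of 3 members are shown, because Pparg, Cidec and Vldlr rose together with HFD in wildtype mice and their windows held a match to a C/EBP-type or C/EBP-ATF motif. The sequences are those of RefSeq on build GRCm38.p6, each 250 bases before and 50 bases from an annotated start, written 5′ to 3′ on the gene's strand. Capitals mark the motif matches. All 3 windows lie inside the gene's annotated span, at a start downstream of the outermost one. The Pparg window is chr6:115421816-115422115 on the plus strand, the Cidec window is chr6:113434715-113435014 on the minus strand, and the Vldlr window is chr19:27216770-27217069 on the plus strand.
Pparg: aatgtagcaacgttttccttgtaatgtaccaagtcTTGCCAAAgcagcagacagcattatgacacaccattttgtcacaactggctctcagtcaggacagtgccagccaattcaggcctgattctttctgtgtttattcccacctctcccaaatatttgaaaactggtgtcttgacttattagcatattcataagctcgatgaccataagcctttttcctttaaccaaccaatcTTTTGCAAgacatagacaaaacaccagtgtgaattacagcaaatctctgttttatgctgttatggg
Cidec: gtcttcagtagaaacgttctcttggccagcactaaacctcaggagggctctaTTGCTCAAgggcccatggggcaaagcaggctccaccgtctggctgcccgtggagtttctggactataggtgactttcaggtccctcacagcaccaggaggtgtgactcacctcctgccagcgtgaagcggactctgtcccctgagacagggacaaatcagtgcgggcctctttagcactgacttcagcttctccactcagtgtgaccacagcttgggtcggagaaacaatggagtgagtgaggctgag
Vldlr: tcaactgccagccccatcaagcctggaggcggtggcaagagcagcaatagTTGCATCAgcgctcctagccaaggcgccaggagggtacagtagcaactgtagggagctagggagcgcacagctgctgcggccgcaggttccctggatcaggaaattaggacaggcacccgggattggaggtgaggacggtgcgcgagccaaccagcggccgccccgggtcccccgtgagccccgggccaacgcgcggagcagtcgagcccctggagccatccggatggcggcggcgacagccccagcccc
The 4 motifs searched, on both strands, were TTGCNNAA of the C/EBP type, TGATGNAA (the C/EBP-ATF response element, CARE), the PPAR and RXR element known as DR1, and a relaxed DR1 that leaves 3 more of its letters free and so contains every strict match. DR1 is a pair of AGGTCA repeats with 1 free base between them. The matches could overlap between motifs. In Pparg the matches to TTGCNNAA began at -215 on the gene's strand and at -16 on the other strand, counted from the start. In Cidec the match began at -198, and in Vldlr the match to TGATGNAA began at -200 on the other strand. RefSeq windows were found for 8 of the 10 genes, 13 windows in all. Of these, 3 held TTGCNNAA, against 10.8% of 32851 windows, and 1 held TGATGNAA, against 3.97%. The third window with TTGCNNAA, not shown, is the outer Vldlr window at chr19:27216234-27216533, with its match at -116 on the other strand. The strict and relaxed DR1 were found in 0 of 13, against 0.0396% and 0.798% of windows. Cd36 and Plin4, which also rose with HFD in wildtype livers, had windows without any match. The other Pparg windows and the outer Cidec window held none either. The windows shown were picked for a rise and a match, and whether the motifs bear on the rise was not tested. A match is a run of letters and not a measured binding site.

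The deposited values are ratios around 1 for each probe set and array, and array medians lay between 0.94 and 1.02. What each ratio was taken against is not stated. A ratio holds no absolute level, so neither the tissue label nor the level of 1 gene against another could be checked, and the experiments were never set against each other in level. Differences are log2 differences of the ratio plus 0.05, with standard errors, from limma with Benjamini-Hochberg adjustment over all 22626 probe sets at a threshold of 0.05. Of the members' ratios, 2 lay below 0.05. For LFD wildtype replicate 2, 1 label field gives both genotypes, and the array was placed by its description as wildtype. For AP20187 replicate 4 that field holds only a single letter, and the array was placed by its description as AP20187-treated. The 3′ minus 5′ log2 difference of the Gapdh control probe sets was -0.23 to -0.15 in HFD Alb::GC, 0.04 to 0.16 in LFD Alb::GC, -0.31 to -0.22 in HFD wildtype and 0.16 to 0.22 in LFD wildtype arrays. For beta-actin it was -0.44 to -0.33 in HFD Alb::GC and -0.71 to -0.62 in HFD wildtype arrays, against -0.16 to 0.18 in LFD Alb::GC and -0.03 to 0.21 in LFD wildtype arrays. This sign of RNA quality or labelling moved with the diet. Within HFD the beta-actin values of the genotypes did not overlap, while the Gapdh values did. The part of this sign in the diet and genotype results below was not tested. In the other experiment the Gapdh value was -0.14 to 0.19 in AP20187 arrays and -0.06 to -0.01 in untreated arrays. The beta-actin value there was -0.04, 0.15, 0.15 and 0.15 in AP20187 arrays and -0.18, -0.12, -0.15 and -0.02 in untreated arrays. It was higher in 3 of 4 treated arrays than in all untreated ones, and its part in the AP20187 results was not tested.

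The first question was what HFD did to these genes in wildtype liver. Pparg, the droplet proteins Cidea, Cidec and Plin4, and the uptake genes Cd36 and Vldlr were all higher on HFD, while Plin2, Plin5, G0s2 and Lpl did not pass the test. Of 16 probe sets, 9 rose (6 genes), 0 fell and 7 missed the threshold. Of all probe sets, 7.97% rose and 6.63% fell. The median log2 difference of the 16 was 1.97, against -0.11 over all probe sets. In 12 of the 16 both HFD arrays lay above both LFD arrays, as they did in 26.7% of all probe sets.

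Pparg had ratios of 6.13 and 6.02 in HFD wildtype livers, against 1.13 and 1.88 in LFD wildtype livers. The HFD arrays lay close together and far above the LFD arrays, a 4.04-fold difference of mean ratios. The log2 difference was 2.02 ± 0.35 (limma, adjusted p = 0.0203), and quantile normalization of the arrays brought it to 1.51 (limma, adjusted p = 0.0594). In bulk tissue more RNA per cell cannot be told apart from more cells of a type that expresses the gene.

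Among the droplet proteins Cidea differed most. Its ratios were 64.42 and 60.39 in HFD wildtype livers, against 0.33 and 0.61 in LFD wildtype livers. The mean ratio was 133-fold higher, and with a log2 difference of 6.96 ± 1.25 (limma, adjusted p = 0.0217) it was the largest rise of the 22626 probe sets. Cidec, the relative of Cidea, had ratios of 15.87 and 14.73 in HFD wildtype livers, against 1.08 and 0.79 in LFD wildtype livers. Its arrays did not overlap between the diets, and the log2 difference was 3.98 ± 0.26 (limma, adjusted p = 0.00326). Plin4 had ratios of 4.78 and 5.91 in HFD wildtype livers, against 0.65 and 0.80 in LFD wildtype livers (log2 difference 2.80 ± 0.44, limma adjusted p = 0.0163). The other coat proteins did not follow this pattern of values. Plin2, the main perilipin of hepatocytes, had ratios of 0.93 and 1.01 in HFD wildtype livers, against 1.36 and 1.14 in LFD wildtype livers (log2 difference -0.35, limma adjusted p = 0.211). Plin5 stood at 0.65 and 0.89 in HFD wildtype livers and at 1.18 and 0.94 in LFD wildtype livers (log2 difference -0.44, limma adjusted p = 0.306). G0s2 stood at 1.59 and 1.68 in HFD wildtype livers and at 1.19 and 1.26 in LFD wildtype livers (log2 difference 0.40, limma adjusted p = 0.397). For these 3 genes the HFD and LFD arrays did not overlap, with Plin2 and Plin5 lower and G0s2 higher on HFD, but none passed.

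Among the uptake genes Cd36 was higher with all 3 of its probe sets. Probe set 1450883_a_at had ratios of 13.59 and 13.42 in HFD wildtype livers, against 0.43 and 0.79 in LFD wildtype livers, a 22.1-fold difference of means. Its log2 difference was 4.42 ± 0.40 (limma, adjusted p = 0.00593). The Cd36 probe sets 1423166_at and 1450884_at differed by 3.70 ± 0.49 and 2.69 ± 0.42 on the log2 scale (limma, adjusted p = 0.0108 and 0.0157). In all 3 the diets did not overlap. Vldlr was split among its probe sets. Probe set 1417900_a_at had ratios of 4.34 and 3.45 in HFD wildtype livers, against 0.73 and 0.45 in LFD wildtype livers (log2 difference 2.65 ± 0.24, limma adjusted p = 0.00599). Probe set 1434465_x_at had 2.53 and 2.42 in HFD wildtype livers, against 0.51 and 0.81 in LFD wildtype livers (log2 difference 1.86 ± 0.26, limma adjusted p = 0.0118). The remaining pair, 1442169_at and 1451156_s_at, missed the threshold at log2 differences of 0.90 and 1.92 (limma, adjusted p = 0.185 and 0.323). The value of 1451156_s_at rested on LFD wildtype replicate 1, whose ratio was 0.04, and without that array the difference was 0.18. Lpl, at 0.13 with probe set 1415904_at and 1.49 with 1431056_a_at, was not called (limma, adjusted p = 0.704 and 0.106).

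**Figure D1:**
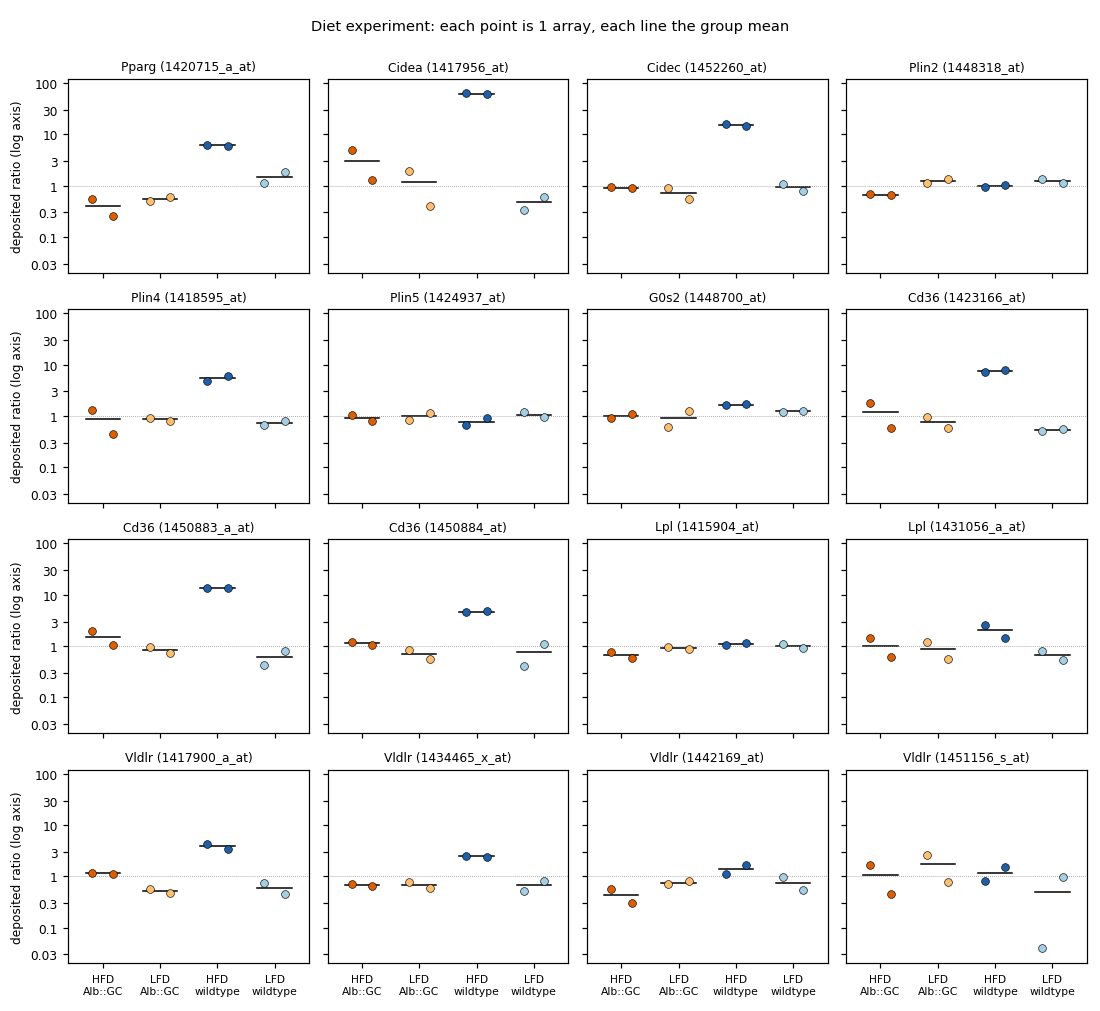
Deposited ratios (log axis) of the 16 member probe sets in the diet experiment, in HFD Alb::GC, LFD Alb::GC, HFD wildtype and LFD wildtype livers from left to right. Each point is 1 of 2 arrays per group and each line the group mean, and the HFD wildtype arrays of Cidea (60.39 and 64.42) and Cidec (14.73 and 15.87) stand far above the other groups.

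These calls changed with the arrays that were in the fit. With only the 4 wildtype arrays in the fit, 5 probe sets passed, and Pparg, Cidea, Cidec and Cd36 1450884_at did not (limma, adjusted p = 0.121, 0.606, 0.159 and 0.062). Without HFD wildtype replicate 1, and likewise without HFD wildtype replicate 2, only Cidec still passed (limma, adjusted p = 0.0429 and 0.0462). In those 2 fits 86 and 47 of all 22626 probe sets passed, against 3303 with all arrays. The differences moved little, at 2.49 and 2.81 for Vldlr 1417900_a_at, against 2.65 with all arrays. In both of those fits Cd36 1450883_a_at and Vldlr 1417900_a_at missed the threshold narrowly, with adjusted p of 0.0501 to 0.0504 by limma. Cidea lost its call in 7 of 8 fits that each left out 1 array, with adjusted p of 0.056 to 0.259, the highest without HFD Alb::GC replicate 2. Plin4 lost it without LFD wildtype replicate 1 or 2 (limma, adjusted p = 0.0631 and 0.0558), and Pparg without LFD wildtype replicate 1 (limma, adjusted p = 0.0687).

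The next question was whether HFD had the same effect in Alb::GC livers. There Pparg, Cidea, Cidec, Plin4, Cd36 and Lpl did not pass the test, Plin2 was lower on HFD, and Vldlr 1417900_a_at lay just beyond the threshold. Of 16 probe sets 0 rose, 1 fell and 15 did not pass, while 4.64% of all probe sets rose and 2.13% fell. The median of the 16 was 0.10, against -0.02 over all probe sets. Pparg had ratios of 0.54 and 0.26 in HFD Alb::GC livers, against 0.50 and 0.59 in LFD Alb::GC livers. These arrays overlapped (log2 difference -0.47 ± 0.35, limma adjusted p = 0.421). Cidea had ratios of 4.84 and 1.29 in HFD Alb::GC livers, against 1.93 and 0.40 in LFD Alb::GC livers. Replicates of Cidea thus differed by several fold within each group and the groups overlapped (log2 difference 1.44 ± 1.25, limma adjusted p = 0.49). Cidec had ratios of 0.92 and 0.89 in HFD Alb::GC livers, against 0.88 and 0.56 in LFD Alb::GC livers (log2 difference 0.34 ± 0.26, limma adjusted p = 0.437).

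Plin2 had ratios of 0.68 and 0.65 in HFD Alb::GC livers, against 1.12 and 1.37 in LFD Alb::GC livers. Its arrays did not overlap and the log2 difference was -0.85 ± 0.17 (limma, adjusted p = 0.0416). The call was lost without the variance trend (limma, adjusted p = 0.0526), with the 4 Alb::GC arrays alone (limma, adjusted p = 0.108), and without any 1 of the Alb::GC or HFD wildtype arrays (limma, adjusted p of 0.0792 to 0.142). Vldlr 1417900_a_at had ratios of 1.18 and 1.10 in HFD Alb::GC livers, against 0.56 and 0.48 in LFD Alb::GC livers. The groups did not overlap, yet the log2 difference of 1.06 ± 0.24 missed the threshold (limma, adjusted p = 0.0545). It passed without LFD wildtype replicate 1 or 2 (limma, adjusted p = 0.034 and 0.0309). The 3 Cd36 probe sets differed by 0.44 to 0.74 on the log2 scale and did not pass.

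Within HFD, the genotypes were compared next. Pparg and Cidec were lower in Alb::GC than in wildtype livers, and the other members did not pass the adjusted test, although most lay lower. Of 16 probe sets 2 fell, 0 rose and 14 missed the threshold. Of all probe sets, 0.0972% fell and 0.0354% rose, 30 in all. The median log2 difference of the 16 was -1.76, against 0.02 over all probe sets. In 14 of the 16 both Alb::GC arrays lay below both wildtype arrays, against 21.9% of all probe sets, and 12 lay lower at an unadjusted p under 0.05, against 6.04%. These shares are descriptions of a list chosen with results in view.

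Pparg had the ratios of 0.54 and 0.26 in HFD Alb::GC livers and of 6.13 and 6.02 in HFD wildtype livers given above. The means were 15.2-fold apart and the log2 difference was -3.84 ± 0.35 (limma, adjusted p = 0.044). For Cidec, at 0.92 and 0.89 in HFD Alb::GC livers and 15.87 and 14.73 in HFD wildtype livers, the means were 16.9-fold apart. Its log2 difference was -4.01 ± 0.26 (limma, adjusted p = 0.0259). These were among the largest negative differences of all probe sets, at places 9 and 5. Both calls were lost after quantile normalization, with log2 differences of -3.22 for Pparg and -3.11 for Cidec (limma, adjusted p = 0.136 and 0.126). Pparg also missed the threshold without the variance trend (limma, adjusted p = 0.0535). Both were lost with the 4 HFD arrays alone and in every fit that left out 1 of the 8 arrays, with differences of -4.30 to -3.38 for Pparg and -4.06 to -3.95 for Cidec (limma, adjusted p of 0.0543 to 0.224). In these fits, and after quantile normalization, 0 of all 22626 probe sets passed.

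Cidea showed the second largest negative difference of all probe sets, -4.61 ± 1.25, but missed the threshold (limma, adjusted p = 0.254). Its ratios of 4.84 and 1.29 in HFD Alb::GC livers lay far below the 64.42 and 60.39 of HFD wildtype livers. Plin4 had ratios of 1.32 and 0.45 in HFD Alb::GC livers, against 4.78 and 5.91 in HFD wildtype livers (log2 difference -2.70 ± 0.44, limma adjusted p = 0.0923). Cd36 1450883_a_at had 1.99 and 1.03 in HFD Alb::GC livers, against 13.59 and 13.42 in HFD wildtype livers (log2 difference -3.19 ± 0.40, limma adjusted p = 0.0678). It passed with an offset of 0.2 in place of 0.05 (limma, adjusted p = 0.0468). The 4 Vldlr probe sets stood at -1.79 to -0.32 on the log2 scale. The lowest adjusted p among them by limma was 0.0725, for 1417900_a_at, with ratios of 1.18 and 1.10 in HFD Alb::GC livers and 4.34 and 3.45 in HFD wildtype livers. Lpl, Plin2, G0s2 and Plin5 stood at -1.03 to 0.24 and did not pass.

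**Figure D2:**
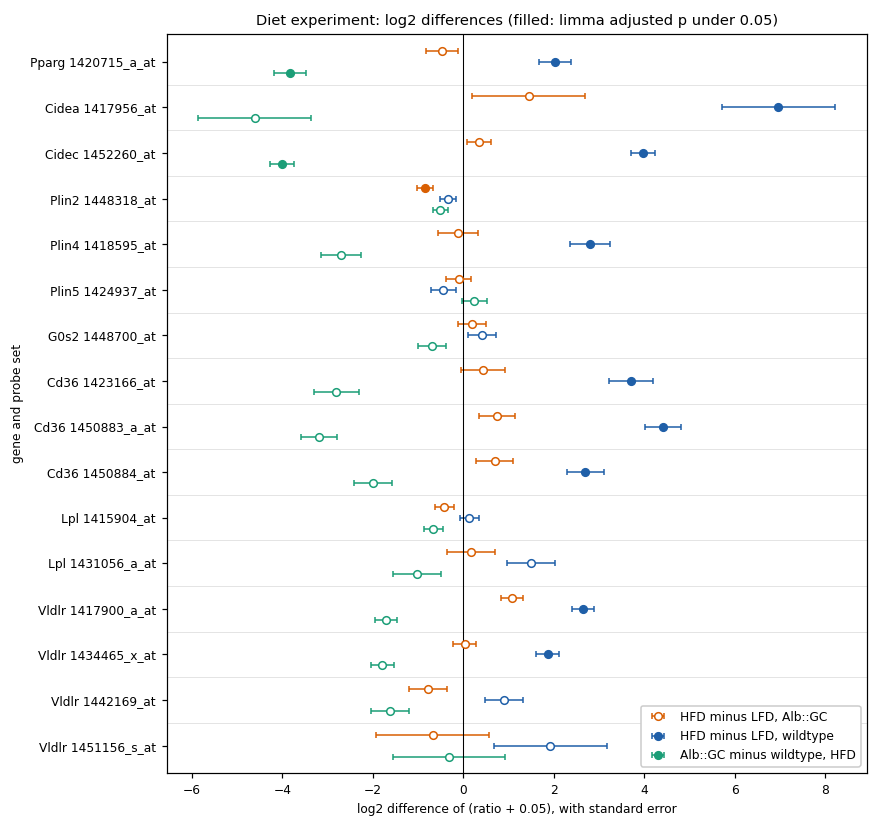
Log2 differences (with standard errors) of the 16 member probe sets for HFD minus LFD in Alb::GC livers, HFD minus LFD in wildtype livers and Alb::GC minus wildtype on HFD. Filled points passed the limma threshold, which 9 probe sets did for diet in wildtype, 1 for diet in Alb::GC and 2 for genotype on HFD.

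The difference between the diet effects was itself tested as an interaction, the diet effect in Alb::GC minus that in wildtype livers. None of the 16 passed and over all probe sets 0% passed in either direction, while 2517 of 22626 had an unadjusted p under 0.05. Cidec stood closest to the threshold at -3.63 ± 0.37 (limma, adjusted p = 0.089), followed by Cd36 1450883_a_at at -3.67 ± 0.56 (limma, adjusted p = 0.139). Pparg stood at -2.49 ± 0.50 (limma, adjusted p = 0.192), Plin4 at -2.92 ± 0.63 (limma, adjusted p = 0.207) and Cidea at -5.52 ± 1.77 (limma, adjusted p = 0.347). At an unadjusted p under 0.05, 10 of 16 lay lower, against 5.18% of all probe sets. Cd36 and Vldlr count among the 10 with several probe sets each, and the list was chosen with results in view. Call and no call in the separate genotypes therefore do not show that the diet effects differ. Since the interaction, the diet effects and the comparison within HFD share arrays, their values for a gene are not separate evidence.

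On LFD the genotypes were not told apart by any member. None of the 16 passed and 0% of all probe sets passed by limma in either direction, with 2337 of 22626 at an unadjusted p under 0.05. Pparg had ratios of 0.50 and 0.59 in LFD Alb::GC livers, against 1.13 and 1.88 in LFD wildtype livers, and the arrays did not overlap. Its log2 difference of -1.35 ± 0.35 did not pass (limma, adjusted p = 0.323). It was the 1 member lower at an unadjusted p under 0.05 by limma, against 5.78% of all probe sets. Averaged over the genotypes, HFD against LFD gave 8 higher and 1 lower of the 16, against 13.5% and 14% of all probe sets. The higher genes were Cidea, Cidec, Plin4, Cd36 and Vldlr, with log2 differences of 0.95 to 4.20, and the lower was Plin2 at -0.60 ± 0.12 (limma, adjusted p = 0.018). Pparg, at 0.77 ± 0.25, did not pass this average (limma, adjusted p = 0.0629). It passed with an offset of 0.2 (limma, adjusted p = 0.0348) and without HFD Alb::GC replicate 2 (limma, adjusted p = 0.0375), and G0s2 passed at 0.54 without LFD Alb::GC replicate 2 (limma, adjusted p = 0.0356). Leaving out 1 array ended the call of Plin2 in 3 of 8 fits, of Plin4 in 6, of Cidea in 5 and of Vldlr 1434465_x_at in 2, with adjusted p of up to 0.0601, 0.0769, 0.302 and 0.0653 by limma.

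The second experiment compared AP20187-treated with untreated livers that all carried the drug-activated eIF2α kinase. No array came from AP20187-treated mice without the transgene, so effects of the compound and of the kinase cannot be told apart. The droplet proteins Cidec, Plin2, Plin4 and Plin5 and the lipase inhibitor G0s2 were higher after AP20187, the lipase Lpl was lower with both probe sets, and Pparg, Cidea, Cd36 and Vldlr did not pass. Of 16 probe sets 5 rose (5 genes), 2 fell (1 gene) and 9 missed the threshold. Of all probe sets, 13.7% rose and 20.4% fell. The median of the 16 was 0.30, against -0.13 over all probe sets.

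G0s2 had ratios of 6.23, 5.50, 4.92 and 4.06 in AP20187 livers, against 0.58, 0.30, 0.87 and 0.95 in untreated livers. All treated arrays lay well above all untreated ones, and the means differed 7.67-fold (log2 difference 2.94 ± 0.33, limma adjusted p = 0.000427). Cidec had ratios of 1.09, 0.99, 1.01 and 0.68 in AP20187 livers, against 0.10, 0.08, 0.11 and 0.02 in untreated livers. Its groups were likewise far apart (log2 difference 3.01 ± 0.36, limma adjusted p = 0.000561), and since the untreated ratios lay near the offset of 0.05, the mean ratios differed more, by 12.2-fold. Plin5, which links droplets to mitochondria, had 1.92, 1.83, 1.59 and 2.01 in AP20187 livers, against 0.31, 0.22, 0.32 and 0.39 in untreated livers. The groups lay far apart (log2 difference 2.41 ± 0.18, limma adjusted p = 0.000102).

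Plin4 had ratios of 2.36, 3.14, 1.41 and 2.47 in AP20187 livers, against 0.28, 0.57, 1.08 and 0.57 in untreated livers. The lowest treated array, replicate 3, lay near the highest untreated array, also numbered 3, without overlap (log2 difference 1.91 ± 0.38, limma adjusted p = 0.00573). Plin2 differed least of the 5, at 1.01 ± 0.0949 in AP20187 livers against 0.615 ± 0.081 in untreated livers (mean ratio and SD, n = 4 each, log2 difference 0.68 ± 0.15, limma adjusted p = 0.00883). Its ratios of 0.90 to 1.13 after AP20187 and 0.51 to 0.70 in untreated livers did not overlap.

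Lpl moved the other way. Probe set 1431056_a_at had ratios of 0.82, 0.86, 1.01 and 0.99 in AP20187 livers, against 3.96, 5.20, 6.82 and 3.07 in untreated livers. Probe set 1415904_at had 0.76, 1.0, 0.90 and 1.0 in AP20187 livers, against 3.50, 4.63, 6.05 and 3.49 in untreated livers. With both probe sets every treated array lay below every untreated array, and mean ratios differed 5.18-fold and 4.83-fold. The log2 differences were -2.25 ± 0.25 and -2.18 ± 0.21 (limma, adjusted p = 0.000433 and 0.000243).

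Pparg itself had ratios of 1.17, 0.97, 0.40 and 0.72 in AP20187 livers, against 1.24, 0.30, 0.23 and 1.29 in untreated livers. The untreated arrays spanned the treated ones (log2 difference 0.34 ± 0.60, limma adjusted p = 0.72). Cidea had 0.23, 0.23, 0.40 and 0.41 in AP20187 livers, against 0.14, 0.29, 1.20 and 1.44 in untreated livers, again with overlap (log2 difference -0.72 ± 0.68, limma adjusted p = 0.475). The 3 Cd36 probe sets lay at -0.28 to 0.16 on the log2 scale. Vldlr 1417900_a_at had 1.28, 1.48, 0.87 and 1.59 in AP20187 livers, against 1.09, 0.84, 0.74 and 0.69 in untreated livers. AP20187 replicate 3 overlapped the untreated group, and the difference of 0.59 ± 0.21 missed the threshold (limma, adjusted p = 0.0621). It passed without AP20187 replicate 3 or without untreated replicate 1 (limma, adjusted p = 0.0128 and 0.039), and Vldlr 1434465_x_at passed without AP20187 replicate 3 (limma, adjusted p = 0.0159). The 7 calls of this experiment held in all 8 fits that left out 1 array.

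**Figure D3:**
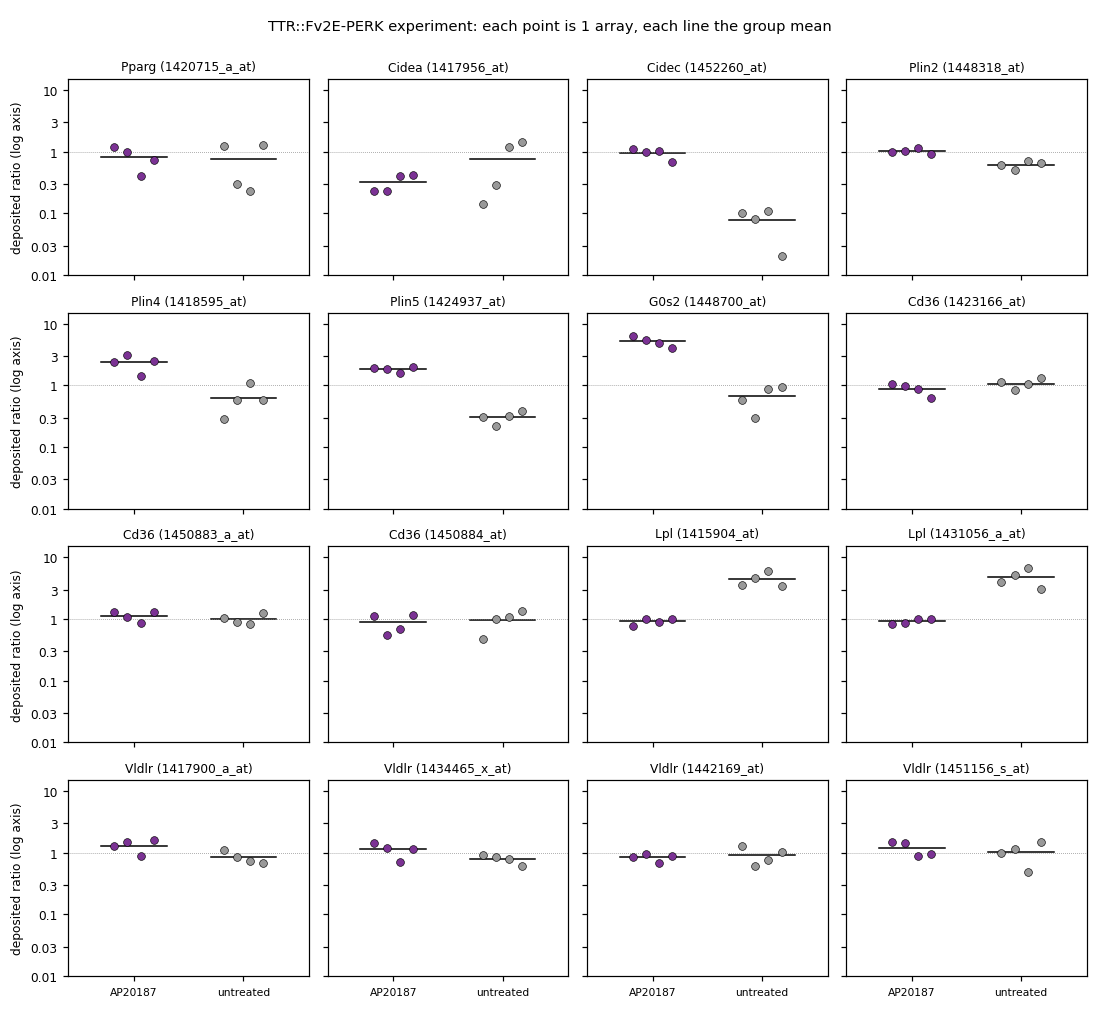
Deposited ratios (log axis) of the 16 member probe sets in AP20187 livers (left) and untreated livers (right), both TTR::Fv2E-PERK. Each point is 1 of 4 arrays and each line the group mean. The AP20187 arrays of G0s2 (4.06 to 6.23) and Cidec (0.68 to 1.09) lie above, and those of Lpl below, all untreated arrays.

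The experiments share no arrays, so the calls can be set side by side. Cidec and Plin4 rose both with AP20187 and with HFD in wildtype livers. Pparg, Cidea, Cd36 and Vldlr passed with HFD in wildtype livers and did not pass with AP20187. Plin2, Plin5 and G0s2 rose with AP20187 and did not pass with HFD in wildtype livers, and Lpl fell with AP20187 and did not pass there. Whether the effects differ between the experiments was not tested.

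Partners of PPARγ were described as a list of 15 genes, of which 13 were measured with 26 probe sets. With HFD in wildtype livers 7 probe sets of 5 genes rose and 0 fell, against 7.97% and 6.63% of all probe sets, with a median of 0.30 against -0.11 over all probe sets. The coactivator Ppargc1a rose with 3 of its 5 probe sets, the highest, 1460336_at, having ratios of 3.29 and 2.52 in HFD wildtype livers against 0.21 and 0.38 in LFD wildtype livers (log2 difference 3.13 ± 0.26, limma adjusted p = 0.00499). The fatty acid receptor Ppara had 6.85 and 6.16 in HFD wildtype livers against 1.15 and 0.87 in LFD wildtype livers (log2 difference 2.64 ± 0.56, limma adjusted p = 0.0319). The coactivators Med1 and Ncoa2 rose by 1.87 and 1.52 on the log2 scale, Med1 with 1 of its 6 probe sets. In Alb::GC livers 5 probe sets of 3 genes rose on HFD, namely Med1, Ppargc1a and Cebpa, against 4.64% of all probe sets (median 0.48 against -0.02). With AP20187 9 probe sets of 7 genes rose and 1 fell, against 13.7% and 20.4% of all probe sets (median 0.64 against -0.13). The C/EBP factors Cebpb and Cebpd, which act ahead of Pparg in adipocytes, rose by 1.90 ± 0.16 and 1.54 ± 0.20 (limma, adjusted p = 0.000143 and 0.000789), Cebpd with 1 of its 2 probe sets. Of the retinoid X receptors, Rxrb rose by 1.06 ± 0.21 and Rxrg fell by 0.77 (limma, adjusted p = 0.00547 and 0.0395). No partner passed between the genotypes on HFD, where only 30 of all 22626 probe sets did.

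Of 12 other genes known as PPARγ targets, 8 were measured with 15 probe sets. HFD in wildtype livers raised 3 probe sets of 2 genes and lowered 0, against 7.97% and 6.63% of all (median 0.14 against -0.11). Mogat1, an enzyme of triglyceride synthesis, had ratios of 4.81 and 5.11 in HFD wildtype livers against 1.04 and 1.59 in LFD wildtype livers (log2 difference 1.91 ± 0.31, limma adjusted p = 0.0168). Its HFD Alb::GC ratios were 0.94 and 0.56, against 0.69 and 0.94 in LFD Alb::GC livers. The fatty acid binding protein Fabp4 rose with 2 of 4 probe sets, 1417023_a_at by 1.88 and 1451263_a_at by 1.47, while 1424155_at stood at -0.24 and was lower on HFD in Alb::GC livers at -3.01 (limma, adjusted p = 0.021). That was the 1 call of the list in Alb::GC livers, where 4.64% of all probe sets rose and 2.13% fell (median 0.08 against -0.02). AP20187 raised 4 probe sets of 3 genes, the lipase inhibitor Angptl4 and the lipases Pnpla2 (1 of 2 probe sets) and Lipe, and lowered 1 of the 2 of Pck1, against 13.7% and 20.4% of all (median -0.29 against -0.13).

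A list of 18 other droplet and lipolysis genes had 16 measured, with 26 probe sets. HFD in wildtype livers raised 5 probe sets and lowered 2, against 7.97% and 6.63% of all (median 0.16 against -0.11). The lysosomal lipase Lipa rose by 2.22 and 0.73 with 2 of its 3 probe sets and stood at -0.32 with the other. The coat protein Plin3 rose by 1.06 and the monoglyceride lipase Mgll, with 1 of 4 probe sets, by 1.0, while the droplet enzymes Hsd17b13 and Hsd17b11 fell by 1.18 and 0.63. The other Hsd17b11 probe set stood at 0.18. In Alb::GC livers Plin3 rose, and Lipa rose by 1.79 with 1 probe set while its others stood at -0.46 and -0.54, in all 2 calls against 4.64% of all (median -0.03 against -0.02). AP20187 raised 10 probe sets of 7 genes and lowered 8 of 5 genes, against 13.7% and 20.4% of all (median 0.00 against -0.13). The droplet protein Hilpda rose by 1.76, Pnpla3 by 1.30, Hsd17b13 by 1.21 and the triglyceride synthase Dgat2 by 1.06, while Bscl2, Lipa and Cideb fell by 1.51, 1.47 and 1.27.

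Of 27 other lipid uptake genes 21 were measured with 35 probe sets. AP20187 raised 8 probe sets of 3 genes and lowered 17 of 12 genes, against 13.7% and 20.4% of all (median -0.37 against -0.13). The endothelial lipase Lipg had ratios of 3.06 to 8.91 in AP20187 livers against 0.31 to 1.25 in untreated livers (log2 difference 3.14 ± 0.47, limma adjusted p = 0.00152). The intestinal-type fatty acid binding protein Fabp2 fell by 2.77 and the lipoprotein receptor Lrp1 by 1.74. HFD in wildtype livers raised 2 probe sets, both of Fabp4, and lowered 4, of Fabp5 and Sort1, against 7.97% and 6.63% of all (median -0.23 against -0.11). The probe sets of Sort1 were split. Averaged over the genotypes, 1423362_at was lower at -1.06 and 1423363_at higher at 0.63 on HFD (limma, adjusted p = 0.00248 and 0.038). Fabp5 had ratios of 0.24 and 0.23 in HFD wildtype livers against 2.04 and 1.63 in LFD wildtype livers, and in HFD Alb::GC livers it had 0.23 and 0.26 against 1.65 and 3.25 in LFD Alb::GC livers. It was lower on HFD in both genotypes (limma, adjusted p = 0.0113 and 0.0144). In Alb::GC livers 0 probe sets of this list rose and 4 fell, against 4.64% and 2.13% of all (median 0.18 against -0.02). Some genes, such as Fabp4, Mogat1 and Angptl4, stood in more than 1 list. On HFD, 0 probe sets of the 4 lists passed between the genotypes, where 30 of all 22626 probe sets did (limma). On LFD and for the interaction 0 of the lists passed, as did 0 of all probe sets (limma). With so few calls over all probe sets, these counts do not show that the genotypes were alike.

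**Figure D4:**
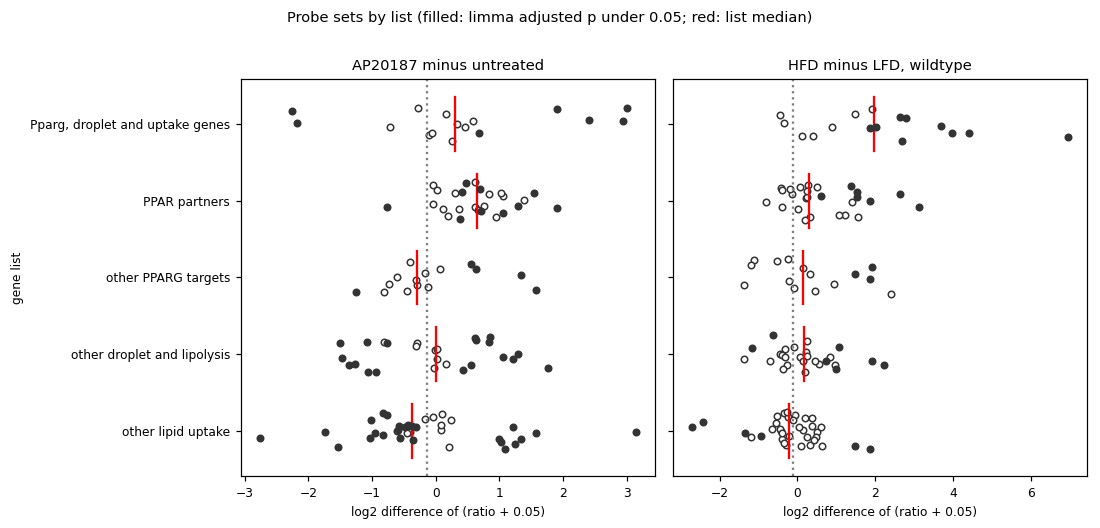
Log2 differences of each probe set of the 16 members and of the 4 further lists, for AP20187 minus untreated (left) and HFD minus LFD in wildtype livers (right). Filled points passed the limma threshold, red bars are list medians (1.97 for the members on HFD) and the dotted line is the median of all probe sets (-0.13 on the left, -0.11 on the right).

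Markers of other cells were read beside these results. Each sum below adds linear ratios, so a probe set with high ratios weighs most in it. Of 8 adipocyte markers 5 were measured with 8 probe sets, and their summed ratio was 6.47 to 8.25 in HFD Alb::GC livers, 6.63 to 7.58 in LFD Alb::GC livers, 10.07 to 11.39 in HFD wildtype livers and 6.56 to 8.58 in LFD wildtype livers. The probe sets that passed with HFD in wildtype livers were the same 2 of Fabp4. Adipoq had ratios of 0.42 and 0.99 in HFD wildtype livers against 1.29 and 1.64 in LFD wildtype livers. It did not pass (log2 difference -1.11, limma adjusted p = 0.424), and its replicates in LFD Alb::GC livers lay apart, at 0.27 and 1.01. Retn had 1.18 and 1.13 in HFD wildtype livers against 0.39 and 1.11 in LFD wildtype livers. The summed ratio of 10 endothelial probe sets was 13.66 to 15.14 in HFD wildtype livers and 7.35 to 7.84 in LFD wildtype livers, with 3 higher, and 11.68 to 13.16 in HFD Alb::GC livers against 9.46 to 9.79 in LFD Alb::GC livers. The 3 higher with HFD in wildtype livers were of the 2 genes Lyve1 and Vwf. Lyve1 1453128_at alone had 2.95 to 3.36 in HFD wildtype livers against 0.52 to 0.92 in LFD wildtype livers. Macrophage sums were 13.85 to 14.83 in HFD wildtype livers and 11.58 to 12.39 in LFD wildtype livers, with 2 of 12 probe sets higher. Stellate cell sums were 11.59 to 14.11 in HFD wildtype livers and 10.66 to 13.45 in LFD wildtype livers, and hepatocyte sums were 19.63 to 19.79 in HFD wildtype livers and 19.18 to 20.77 in LFD wildtype livers, both with overlap. Of the stellate probe sets 2 were higher and 1 lower, and of the hepatocyte ones 3 were higher, all of the 1 gene Hnf4a. Hepatocyte sums were 21.03 to 22.08 in HFD Alb::GC livers, above the 18.3 to 18.84 of LFD Alb::GC livers and above those of HFD wildtype livers, and stellate sums were 12.36 to 14.16 in HFD Alb::GC livers, below the 14.37 to 15.78 of LFD Alb::GC livers. Macrophage sums, at 10.42 to 15.76 in HFD Alb::GC and 10.72 to 13.93 in LFD Alb::GC livers, overlapped, as did muscle sums, at 4.45 to 5.98 in HFD Alb::GC and 4.12 to 4.64 in LFD Alb::GC livers. Muscle sums were 3.30 to 4.56 in HFD wildtype livers, below the 4.68 to 5.87 of LFD wildtype livers, with 0 of 5 called. None of the adipocyte, endothelial, macrophage, stellate, hepatocyte or muscle probe sets passed between the genotypes on HFD (limma). Only 30 of all 22626 probe sets passed there. For HFD in wildtype, the shares of all probe sets to set the counts against are 7.97% higher and 6.63% lower. The part of these markers in the diet and genotype differences was not tested.

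With AP20187 the sums of several cell types, in which high ratios again weigh most, were lower. Stellate sums were 10.56 to 12.38 in AP20187 livers and 20.06 to 26.62 in untreated livers, with 8 of 13 probe sets lower, among them the collagens Col1a1 and Col3a1. Hepatocyte sums were 17.93 to 20.7 in AP20187 livers and 27.7 to 32.91 in untreated livers, with 12 of 19 lower and 4 higher. Otc 1425540_at alone had 0.15 to 1.8 in AP20187 livers against 4.26 to 9.56 in untreated livers. The 4 higher were of the 2 genes Foxa2 and Hnf4a. Macrophage sums were 9.82 to 11.85 in AP20187 livers and 13.12 to 14.43 in untreated livers, with 6 of 12 lower. Endothelial sums were 9.25 to 10.11 in AP20187 livers and 10.94 to 12.25 in untreated livers, with 3 of 10 lower. Adipocyte sums were 5.84 to 7.06 in AP20187 livers and 6.60 to 8.87 in untreated livers, with 1 of 8 probe sets, of Lipe, higher. Muscle sums were 5.06 to 7.40 in AP20187 livers and 3.43 to 6.47 in untreated livers, with Tnnc1 higher. These counts stand beside 20.4% lower and 13.7% higher over all probe sets. The part of these markers in the differences of the AP20187 experiment was likewise not tested.

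The genes whose pattern lay closest to Pparg, Cidec and Lpl were found as the smallest root mean square log2 difference over the 16 arrays, centred within each experiment. For Pparg, whose own root mean square was 1.23, they were Slc22a29 at 0.68, Mogat1 at 0.71 and Ppbp at 0.74. Mogat1 is the triglyceride enzyme already described, and Slc22a29 differed by 3.38 with HFD in wildtype livers. For Cidec, with 1.68 of its own, they were Acss1 at 0.64, Orm3 at 0.73 and the metallothionein Mt1 at 0.78. The mitochondrial acetate enzyme Acss1 differed by 2.15 with AP20187 and by 2.88 with HFD in wildtype livers. Orm3 differed by 3.32 with HFD in wildtype livers and also by 2.43 in Alb::GC livers, where Cidec differed by 0.34. For Lpl 1431056_a_at, with 0.97 of its own, they were Aldh1b1 at 0.43, the fatty acid synthase Fasn at 0.44 and Ptprf at 0.49, while the other Lpl probe set stood at 0.47. These likenesses describe 16 arrays whose groups the genes share.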

How the data were processed

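Liver RNA was copied into biotin-labelled cRNA and read on single-sample Affymetrix arrays, per the labels' protocols. The deposited values are a linear ratio per probe set and array, given to 2 decimals with a smallest value of 0.01. This unit was read from the values. For scanner software, summary method, scaling and what each value was divided by, the answer is not given in the sources used here. Of 22690 probe sets, 64 controls were left out. In the platform annotation, which can be old, 20380 probe sets had 1 symbol, 691 had several and 1555 had none, and a probe set with several named no gene.

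Values were taken as log2(ratio + 0.05), which understates changes of low ratios, and fitted with limma 3.58.1 in R 4.3.3 (files read by data.table, version 1.17.8), separately for each experiment of 8 arrays, with a variance trend. The diet fit had 4 residual degrees of freedom and the AP20187 fit had 6. In the diet fit the 4 groups share 1 spread. Probe sets were not merged by gene, and every probe set of a member is given. Of each further list, up to 4 genes in each direction past the threshold, by size, could be named. Steps were tested on simulated data. Python 3.11.15 and matplotlib 3.10.9 drew the plots. The alternatives were offsets of 0.01 and 0.2, quantile normalization, median centring, no variance trend, a filter at the 20th percentile of medians, the 4 arrays compared alone and leaving out each array. The members and the lists (PPAR partners, other PPARγ targets, other droplet and lipolysis genes, other lipid uptake genes, and adipocyte, macrophage, endothelial, stellate, hepatocyte and muscle markers) were chosen with earlier results of these data known. The precision is limited by the number of arrays. An Atf4 knockout that the design text mentions was not analysed here.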

Additional observations from a re-analysis of the deposited data

Results flagged for a closer look

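The Vldlr probe set 1442169_at moved in opposite directions with the diet in the 2 genotypes. Its ratios were 0.56 and 0.30 in HFD Alb::GC livers, both below the 0.70 and 0.80 of LFD Alb::GC livers, and 1.13 and 1.66 in HFD wildtype livers, both above the 0.95 and 0.53 of LFD wildtype livers. Neither diet effect passed by limma (adjusted p = 0.268 in Alb::GC and 0.185 in wildtype). The difference between them was -1.69 ± 0.59 on the log2 scale and did not pass (limma, adjusted p = 0.389), so the opposite directions are not shown to differ. The other Vldlr probe sets did not show this pattern of non-overlapping arrays.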

How the results depend on the processing

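With 2 arrays a group, the diet calls changed with the arrays that were in the fit. For HFD against LFD in wildtype, 9 of 16 probe sets passed, 5 with the 4 wildtype arrays alone, and 1 to 9 when 1 array was left out. For HFD against LFD in Alb::GC 1 passed, 0 without the variance trend, 0 with the 4 Alb::GC arrays alone, and 0 to 2 when 1 array was left out. For Alb::GC against wildtype on HFD 2 passed, 0 after quantile normalization, 1 without the variance trend, 0 with the 4 HFD arrays alone, and 0 when 1 array was left out. Over all probe sets HFD in wildtype gave 3303 calls, 957 with its 4 arrays alone, and 86 and 47 without HFD wildtype replicate 1 and 2. HFD in Alb::GC gave 1531, 0 with its 4 arrays, and 129 and 18 without HFD Alb::GC replicate 1 and 2. Alb::GC against wildtype on HFD gave 30, and 0 after quantile normalization, with 4 arrays and when any 1 array was left out. Of 1611 values of single probe sets under the alternatives, 1482 kept direction and side of the threshold, 74 lost a call, 9 gained one, 46 changed sign without a call, and 0 called values changed sign. The filter on low medians kept 13 of the 16 probe sets. Arrays were numbered in the order of deposit, and no paired analysis was possible because the labels pair no arrays. The cause of the lost calls was not tested. A ratio holds no signal over background, so whether a probe set was detected is unknown.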
